A study of Mus musculus with 21 samples.

Results

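The striated muscle myosin heavy chains are the motor proteins of the thick filament, and 7 of their genes are described here: Myh1, Myh2, Myh3, Myh4, Myh6, Myh7 and Myh8. They were taken by gene symbol from 2 count tables of mouse tissue. BAT stands for brown fat, and WV for white vastus lateralis, the pale region of a thigh muscle. Each symbol had 1 gene model in each table, so the set holds 7 of 28541 models. The libraries came from whole tissue of BATI4KO mice and of floxed littermates, which carry the Irf4 gene flanked by loxP sites. What is known of the study gives BATI4KO as mice with the same floxed alleles and a Cre driven by the Ucp1 promoter, which removes the transcription factor Irf4 in brown adipocytes, to ask what follows in brown fat and in distant muscle. BAT had 5 floxed libraries (FX_1, FX_2, FX_3, FX_5497 and FX_5503) and 6 BATI4KO libraries (KO_1, KO_2, KO_3, KO_5414, KO_5492 and KO_5494). WV had 5 floxed (FX_5413, FX_5415, FX_5497, FX_5503 and FX_5514) and 5 BATI4KO libraries (KO_5492, KO_5493, KO_5494, KO_5495 and KO_5496). These names follow the sample titles, in which a short number or a long tag is given. Age, strain and the Cre driver are not in the labels. Whether each library is another animal is not stated either, so a p-value reflects variation among libraries that may be partly technical.

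A muscle fibre contracts at a speed set largely by its myosin heavy chain. Myh7 encodes the slow chain of type I fibres and Myh2 the chain of oxidative fast IIa fibres. Myh1 encodes that of IIx fibres and Myh4 that of the fastest, glycolytic IIb fibres. Myh3 and Myh8 encode the embryonic and the neonatal chain, which are replaced as muscle matures, and Myh6 encodes the fast chain of heart muscle. White vastus lateralis is a glycolytic muscle of mostly IIb fibres, and brown fat lies close to muscles of the back. The source of the myosin RNA in the brown fat libraries was not tested.

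The coding sequences are alike, which bears on every value below because a read from a shared stretch cannot be given to a gene with certainty. A stretch of 60 coding bases in which these genes do differ is shown for Myh4, the most abundant of them, and for 4 others. The sequences were read from GENCODE M21 transcripts, 5′ to 3′, and start at coding base 3859 of Myh4, 3868 of Myh1 and Myh2, 3856 of Myh8 and 3847 of Myh7. Capitals mark bases that differ from Myh4.
Myh4: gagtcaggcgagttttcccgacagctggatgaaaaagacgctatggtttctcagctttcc
Myh1: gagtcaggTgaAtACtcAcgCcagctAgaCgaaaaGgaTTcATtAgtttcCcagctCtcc
Myh2: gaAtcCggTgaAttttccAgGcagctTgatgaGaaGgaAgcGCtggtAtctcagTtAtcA
Myh8: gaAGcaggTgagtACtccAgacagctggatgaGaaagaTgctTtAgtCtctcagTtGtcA
Myh7: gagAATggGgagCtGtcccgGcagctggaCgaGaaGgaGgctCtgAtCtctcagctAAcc
In this stretch Myh1, Myh2 and Myh7 each differed from Myh4 at 16 bases and Myh8 at 14. The stretch was chosen because the closest pair among Myh4, Myh1, Myh2 and Myh8 differs most in it. Myh7 only had to align there without a gap. The genes also differ elsewhere, but some stretches are identical. The longest run shared exactly was 268 bases between Myh1 and Myh2, 161 bases between Myh1 and Myh4, 164 bases between Myh4 and Myh8 and 245 bases between Myh6 and Myh7. Aligned coding sequences were 91.1% identical between Myh1 and Myh2, 91.7% between Myh6 and Myh7 and 77.8% between Myh4 and Myh7.

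Which genes shared most sequence depended on the window, Myh2 and Myh1 at 50 bases and Myh6 and Myh7 at 100 bases. Of all coding windows of 50 bases, 28.1% in Myh2, 27.9% in Myh1, 23.8% in Myh6, 23.8% in Myh7, 22.7% in Myh8, 19.6% in Myh4 and 4.99% in Myh3 also occurred in another of 9 sarcomeric myosin genes (these 7, Myh13 and Myh7b). With windows of 100 bases the shares were 9.58% in Myh2, 10.2% in Myh1, 12.0% in Myh6, 12.0% in Myh7, 6.999% in Myh8, 3.99% in Myh4 and 1.19% in Myh3. Read length and the treatment of reads with several matches are not given in the labels or headers, so how many counts were split or lost between these genes is unknown.

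**Figure D1:**
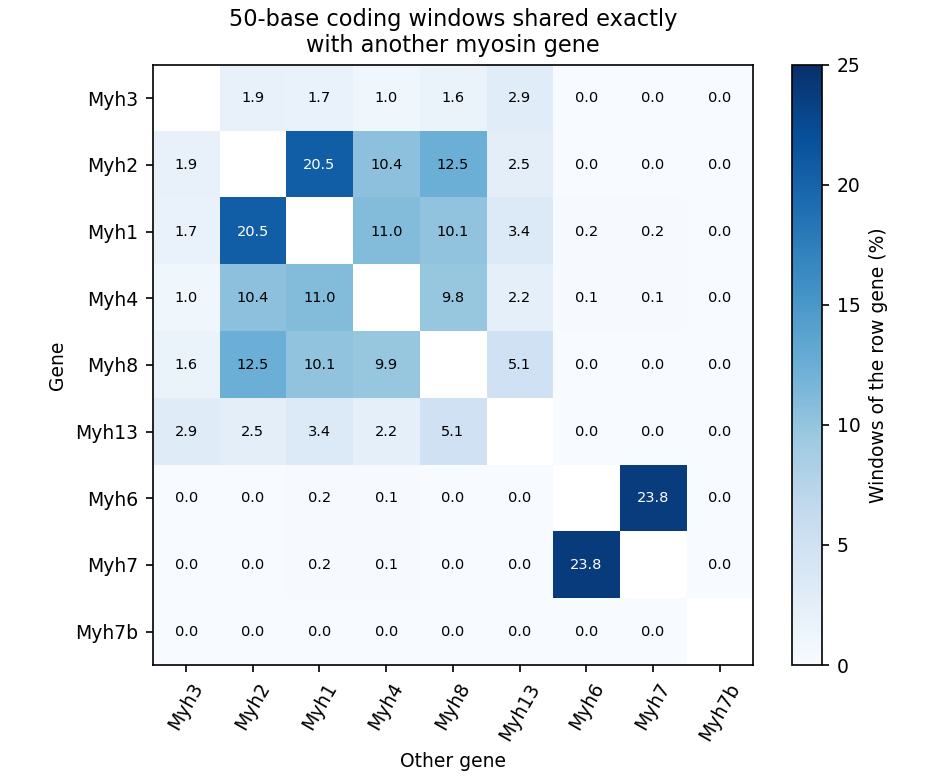
The grid plots the percentage of 50-base coding windows of the row gene that occur exactly in the column gene, for 9 myosin genes of GENCODE M21. The darkest cells are Myh6 with Myh7 and Myh1 with Myh2, Myh8 shares more with Myh1, Myh2 and Myh4 than with Myh3, and Myh7b shares none.

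The genes lie in clusters. In RefSeq's annotation of GRCm38.p6, Myh3, Myh2, Myh1, Myh4 and Myh8 follow each other on chromosome 11 from base 67078273 to 67308634, followed by Myh13, the chain of eye and larynx muscles. Myh6 (54941921 to 54968017) and Myh7 (54970684 to 54994626) are neighbours on chromosome 14. Myh1 overlaps the long noncoding RNA Myhas, Myh7 overlaps Mhrt, Gm31251 and Mir208b, Myh6 overlaps Cmtm5, Mir208a and Gm52092, Myh3 overlaps Mir6923, and Myh8 a tRNA gene. Strand handling is not given, so reads of such partners cannot be told apart from those of the myosin.

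All 7 genes had an entry in RefSeq's promoter table for GRCm38.p6. The 250 bases before the start site are shown for the fast and neonatal genes of chromosome 11, which share a run of letters, and for Myh7, which lacks it. Capitals mark the runs TTCTAATTATATCC, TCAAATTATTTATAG and TATAAA.
Myh4, chr11:67237562-67237811, plus strand: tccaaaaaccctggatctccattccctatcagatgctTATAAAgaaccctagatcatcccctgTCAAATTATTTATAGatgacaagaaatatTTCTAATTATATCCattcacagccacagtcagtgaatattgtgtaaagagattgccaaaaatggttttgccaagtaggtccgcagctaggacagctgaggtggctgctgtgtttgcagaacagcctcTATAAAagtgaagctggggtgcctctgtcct
Myh1, chr11:67199852-67200101, plus strand: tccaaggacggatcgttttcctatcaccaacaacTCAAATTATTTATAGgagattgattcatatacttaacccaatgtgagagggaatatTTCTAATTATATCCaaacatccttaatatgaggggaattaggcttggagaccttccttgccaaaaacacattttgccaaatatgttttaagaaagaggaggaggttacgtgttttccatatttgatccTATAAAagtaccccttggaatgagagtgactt
Myh2, chr11:67170777-67171026, plus strand: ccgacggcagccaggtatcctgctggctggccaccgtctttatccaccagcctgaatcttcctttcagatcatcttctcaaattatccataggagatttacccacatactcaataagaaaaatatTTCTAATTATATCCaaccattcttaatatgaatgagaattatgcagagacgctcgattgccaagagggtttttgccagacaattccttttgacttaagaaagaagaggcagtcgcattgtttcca
Myh8, chr11:67276874-67277123, plus strand: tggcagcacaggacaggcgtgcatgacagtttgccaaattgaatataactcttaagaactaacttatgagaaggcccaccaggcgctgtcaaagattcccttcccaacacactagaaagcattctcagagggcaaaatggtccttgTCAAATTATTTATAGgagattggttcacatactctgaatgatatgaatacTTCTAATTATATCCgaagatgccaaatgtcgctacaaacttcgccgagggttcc
Myh7, chr14:54994627-54994876, minus strand: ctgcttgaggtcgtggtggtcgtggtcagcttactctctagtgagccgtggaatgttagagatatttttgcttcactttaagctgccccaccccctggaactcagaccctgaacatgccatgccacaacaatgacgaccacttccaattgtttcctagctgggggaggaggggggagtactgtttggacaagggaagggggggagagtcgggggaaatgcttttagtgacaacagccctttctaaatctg
The run TTCTAATTATATCC was chosen because these 4 genes share it. It lies at bases -160 to -147 from the start in Myh1, -125 to -112 in Myh2, -158 to -145 in Myh4 and -54 to -41 in Myh8, and over both strands it occurred in 4 of 32851 such windows (0.0122%), these 4. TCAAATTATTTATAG, the longest run that Myh1, Myh4 and Myh8 share, occurred in 3 windows (0.00913%), at -216 to -202, -187 to -173 and -104 to -90. It contains TATAAA on the other strand. TATAAA occurred in 12.4% of all windows and in those of Myh1, Myh3, Myh4 and Myh8. The E-box letters CANNTG occurred in 66.2% of windows and in those of Myh3, Myh4, Myh6, Myh7 and Myh8. These are matches of letters, not binding sites.

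A BAT library held between 20219479 and 41773148 counts and a WV library between 30479508 and 40328627. Irf4 fell in BAT from 39.7 ± 16.8 to 7.22 ± 0.56 CPM (counts scaled to library size; SD, n = 5 and 6; log2 -2.45, edgeR adjusted p = 0.0026), as the labels state. Summed markers of skeletal fibres (Acta1, Ckm, Ttn, Neb, Ryr1 and Pygm) were at 124240 to 317483 CPM in WV. In BAT they were at 132 to 1147 CPM with the floxed and 687 to 19494 CPM with the BATI4KO genotype. Brown adipocyte markers (Ucp1, Cidea, Adipoq, Plin1, Cox8b and Fabp4) summed to 61.9 to 149 CPM in WV. Cox8b (34.7 to 102 CPM) and Fabp4 (24.7 to 66.1 CPM) made up most of that, while Ucp1 was at 0 to 0.298 CPM. In BAT the brown adipocyte markers summed to 7537 to 16761 CPM with the floxed and 5627 to 11578 CPM with the BATI4KO genotype. The ranges overlapped and lay lower in BATI4KO, and the part of these markers in the myosin differences was not tested. The noncoding RNAs Rmrp and Rpph1 set libraries apart. In WV, Rmrp was at 105 to 134 CPM in FX_5497, FX_5503 and FX_5514 and at 11.9 to 22.3 CPM in the other 7 libraries, and in BAT it was high in the libraries with short numbers. Title style was a covariate in the BAT fit. In bulk tissue, fewer cells of a type and less RNA per cell cannot be told apart.

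In white vastus the myosin message was that of a fast glycolytic muscle. The 7 genes together took 4.63% to 8.02% of all counts, between 1763086 and 2998867 counts a library. Per length, as CPM per kilobase of the gene model (CPM/kb), Myh4 was highest, followed by Myh1 and Myh2, and this order held in 10 of 10 libraries. Model lengths were 6291 bases for Myh1, 7256 for Myh2, 6129 for Myh3, 6297 for Myh4, 6105 for Myh6 and 8199 for Myh7, but 11873 for Myh8, whose coding part is 5814 bases, so the level of Myh8 depends most on its model.

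Myh4, the IIb chain, was at 8378, 6588, 9307, 11732 and 8586 CPM/kb in FX_5413, FX_5415, FX_5497, FX_5503 and FX_5514. In KO_5492, KO_5493, KO_5494, KO_5495 and KO_5496 it was at 4835, 12527, 9220, 7706 and 14397 CPM/kb. Both the lowest and the highest library were BATI4KO, and the floxed values lay between them. Its range did not meet that of any other member. Of the summed CPM/kb of the 7 genes, Myh4 took a median of 89.8% and from 72.5% (KO_5495) to 97.3% (FX_5503).

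Myh1, the IIx chain, was at 2682, 334, 1046, 252 and 1569 CPM/kb in the floxed and at 1045, 812, 507, 2011 and 503 CPM/kb in the BATI4KO libraries, in the same order. Its share of myosin was 2.09% to 23.8%. Myh2, the IIa chain, was at 210, 135, 305, 65.5 and 518 CPM/kb in the floxed and at 410, 202, 153, 773 and 166 CPM/kb in the BATI4KO libraries. The libraries with the most Myh1 and the most Myh2 were of different genotypes, FX_5413 for Myh1 and KO_5495 for Myh2. The ranges of Myh1 and Myh2 overlapped between libraries, although Myh1 exceeded Myh2 within each library.

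**Figure D2:**
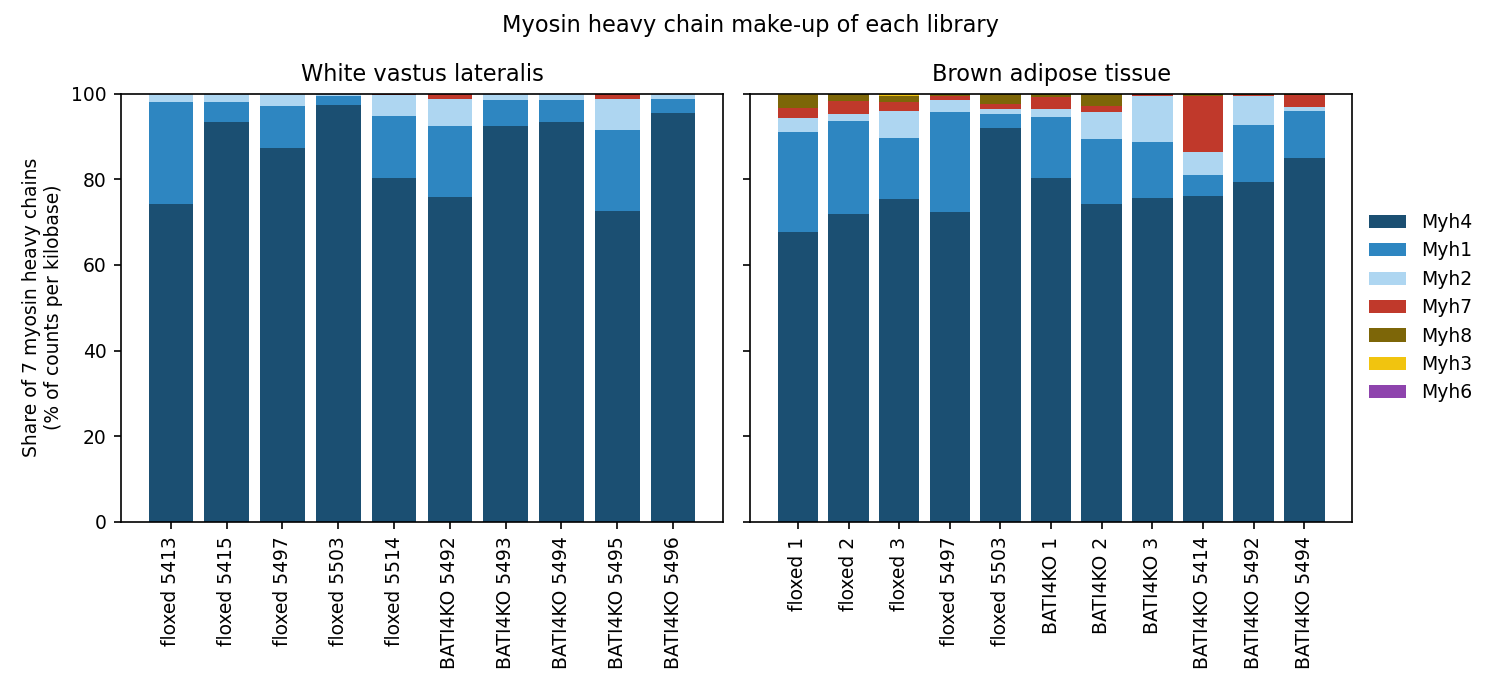
Stacked bars give the share of each of 7 myosin heavy chains in their summed counts per kilobase (percent, linear axis from 0), 1 bar per library, for white vastus (left) and brown fat (right). Myh4 takes 72.5% to 97.3% of the bar in white vastus and 67.7% to 92.0% in brown fat, and Myh7 reaches 13.1% in library KO_5414 of brown fat.

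Myh7, the slow chain, varied most among libraries of white vastus. It was at 1.28, 0.272, 3.86, 0.0815 and 22.3 CPM/kb in the floxed libraries, again in the order of their tags. In the BATI4KO libraries it was at 71.8, 2.44, 0.321, 125 and 0.821 CPM/kb. KO_5495, KO_5492 and FX_5514 stood high, and the other 7 libraries, of both genotypes, stayed at or below 3.86 CPM/kb. The counts behind these values ran from 22 (FX_5503) to 32183 (KO_5495), and the level spanned 1533-fold, against 2.98-fold for Myh4, 10.6-fold for Myh1 and 11.8-fold for Myh2. Myh7 exceeded Myh8 in only 3 of 10 libraries although its mean was higher. The share of Myh7 in myosin stayed between 0.000676% and 1.18%.

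Slow troponin genes stood high in the same libraries. Tnnt1, the slow troponin T, was at 4.22, 1.04, 8.65, 0.456 and 27.7 CPM in the floxed and at 125, 4.05, 1.24, 120 and 1.55 CPM in the BATI4KO libraries of white vastus. Over the 10 libraries it had the highest correlation with Myh7 of log2 CPM among all tested models that are not members (r = 0.991, rho = 0.976, r = 0.986 without the 2 libraries farthest from the median of Myh7). Tnnc1 (r = 0.988, rho = 0.988) and Tnni1 (r = 0.983, rho = 0.964), slow troponins C and I, were next. The fast Tnnt3 was at 7543 to 10896 CPM in all 10 libraries.

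**Figure D3:**
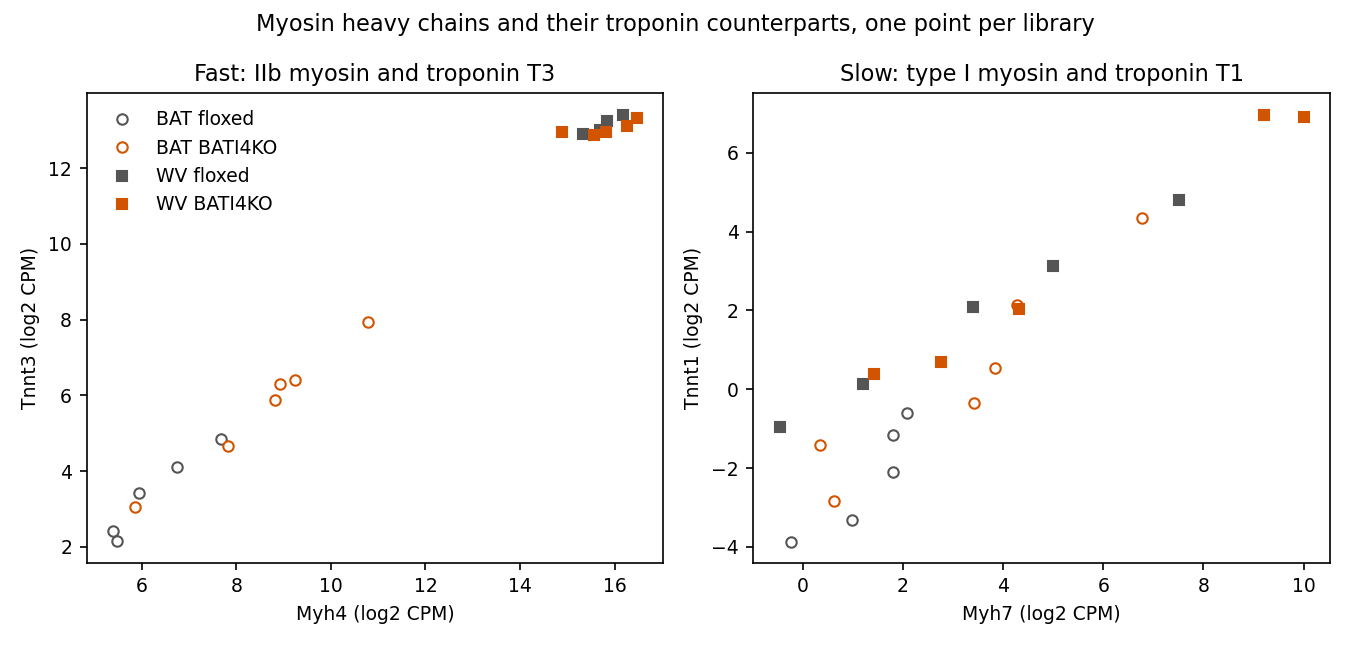
Each point is a library, with the log2 CPM of a myosin heavy chain on the horizontal axis and of a troponin T on the vertical axis: Myh4 and the fast Tnnt3 on the left, Myh7 and the slow Tnnt1 on the right. Myh4 rises with Tnnt3 across brown fat libraries, and in both tissues the libraries with most Myh7 are those with most Tnnt1.

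The developmental and cardiac chains were minor in white vastus. Myh8 was at 7.97, 5.78, 9.46, 12.0 and 8.79 CPM/kb in the floxed and at 5.204, 7.68, 5.76, 8.72 and 9.86 CPM/kb in the BATI4KO libraries. Myh3 was at 3.40, 0.931, 1.13, 0.501 and 1.57 CPM/kb in the floxed and at 1.77, 1.60, 1.21, 3.28 and 1.57 CPM/kb in the BATI4KO libraries. Myh6 was at 0.732, 0.158, 0.602, 0.129 and 0.857 CPM/kb in the floxed and at 1.55, 0.495, 0.253, 2.84 and 0.204 CPM/kb in the BATI4KO libraries. The genotypes overlapped for each of the 3 genes, and Myh8 exceeded Myh3, and Myh3 exceeded Myh6, in 10 of 10 libraries.

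Several of these low values moved little relative to an abundant relative. Myh8 had 1.16 to 2.13 counts per 1000 counts of Myh4 in white vastus, a spread of 1.84-fold, and Myh13, which shares fewer windows with Myh4, had 3.85 to 6.27 per 1000. Myh3 had 0.973 to 3.04 counts per 1000 counts of Myh1. Myh6, in contrast, had from 16.1 to 1182 counts per 1000 counts of Myh7, its nearest relative. Whether reads of shared sequence contribute to the counts of Myh8, Myh3 or Myh13 was not tested. Summed markers of stem cells and regenerating fibres (Pax7, Myf5, Myod1, Myog, Ncam1 and Tmem8c) ranged over 12.9 to 33.8 CPM in the floxed and 24.4 to 32.5 CPM in the BATI4KO libraries of white vastus. The cardiac markers Myl7 and Nkx2-5 were at 0 counts in every white vastus library, and the 8 cardiac markers summed to 2.18 to 5.45 CPM.

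No myosin heavy chain passed the test between genotypes in white vastus. Of 7 tested members 0 passed edgeR's quasi-likelihood test, and 0 had an unadjusted p under 0.05 (over all 14529 tested models these shares were 0.00688% and 8.91%). DESeq2 also called 0 members, against 0.865% of models. The log2 difference, BATI4KO minus floxed, was +0.12 for Myh4 (SE 0.36, edgeR adjusted p = 0.952), -0.27 for Myh1 (SE 0.60, edgeR adjusted p = 0.927) and +0.45 for Myh2 (SE 0.55, edgeR adjusted p = 0.853). For Myh8 it was -0.25 (SE 0.21), for Myh3 +0.33 (SE 0.42) and for Myh6 +1.11 (SE 0.72), with edgeR adjusted p-values of 0.757, 0.862 and 0.688. Single libraries moved these values: Myh3 was at +0.86 without FX_5413 (edgeR adjusted p = 0.299) and +0.04 without KO_5495, and Myh6 at +0.36 without KO_5495.

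The slow chain had the widest interval. In white vastus the mean of Myh7 was 45.6 ± 77.9 CPM over the floxed libraries and 328 ± 463 CPM over those of BATI4KO mice (SD, n = 5 each), with a log2 difference of +2.84 (SE 1.62, edgeR adjusted p = 0.655). Only 2 of 5 BATI4KO libraries lay above the floxed mean. Without KO_5495 the difference was +1.77, and without FX_5514 it was +4.86 (edgeR adjusted p = 0.859 and 0.497). In the 7 libraries with low Rmrp and Rpph1, of which 2 are floxed, it was +5.71 (edgeR adjusted p = 0.98). FX_5497, FX_5503 and FX_5514 are left out there.

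Genes of slow fibres differed in the same direction as Myh7. All 11 of a list of slow counterparts had a positive log2 difference in white vastus, with a median of +1.73, against -0.01 over all tested models. None passed, and 2 of 11 had an unadjusted p under 0.05 in edgeR. Over all tested models of white vastus 48.5% were positive and 8.91% had such a p. By level per length the list was led by Myl3, the slow essential light chain (log2 +1.38, edgeR adjusted p = 0.805), Ankrd2, a stretch-responsive ankyrin protein (+0.75, 0.824), Myl2, the slow regulatory light chain (+1.94, 0.708), and Tnnt1 (+2.58, 0.606). For all 11, only 2 of 5 BATI4KO libraries lay above the floxed mean. Median CPM was lower in BATI4KO than in floxed libraries for Myl3 (7.28 against 41.0), Ankrd2 (18.6 against 25.4) and Tnnt1 (4.05 against 4.22). For Myl2 it was higher (2.25 against 1.55). The median log2 difference of the list was +1.08 without KO_5495, where 10 of 11 were positive, and +2.37 in the 7 libraries with low Rmrp and Rpph1.

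The fast counterparts stayed near 0. Of 11 genes 2 had a positive difference, the median was -0.08, and 0 had an unadjusted p under 0.05. Atp2a1, the calcium pump of fast fibres (log2 +0.15), Tnni2, the fast troponin I (-0.15), Tnnt3 (-0.08) and Myl1, the fast essential light chain (-0.11), had the highest levels per length, with edgeR adjusted p-values of 0.858 to 0.942. In the 7 libraries with low Rmrp and Rpph1 the sign of the list turned: 10 of 11 were positive, with a median of +0.18.

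Proteins that build or tune the thick filament also did not pass in white vastus. Among 21 tested partners 12 had a positive difference, with a median of +0.02, and 1 had an unadjusted p under 0.05. Those with the highest level per length were Myl1, Mylpf, the fast regulatory light chain (log2 -0.22), Mybpc2, the fast myosin binding protein C (-0.06), and Ttn, titin, the ruler and spring of the sarcomere (+0.43, edgeR adjusted p = 0.798). Of 6 other myosin heavy chains tested 0 passed. Myh13 had mean levels of 297 CPM with the floxed and 272 CPM with the BATI4KO genotype (log2 -0.13), Myh9, the nonmuscle chain of most cells, differed by +0.11, Myh14 by +0.21 and the smooth muscle chain Myh11 by -0.22.

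In brown fat the same genes were present at a small fraction of their level in muscle. Together they took 0.00424% to 0.027% of counts in floxed libraries and 0.00833% to 0.264% in BATI4KO libraries. The summed level in FX_1, FX_2, FX_3, FX_5497 and FX_5503 was 9.82, 13.6, 22.6, 45.1 and 7.67 CPM/kb. In KO_1, KO_2, KO_3, KO_5414, KO_5492 and KO_5494 it was 44.8, 12.4, 372, 102, 121 and 84.5 CPM/kb. KO_3 stood far above all others, FX_5497 reached the level of KO_1, and KO_2 lay among the floxed libraries. Titin gave the same picture, at 1.62% of the counts in KO_3 and at most 0.178% in the other BAT libraries.

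Myh4 carried most of this signal. It was at 6.65, 9.82, 17.0, 32.6 and 7.06 CPM/kb in the floxed and at 35.9, 9.19, 281, 77.4, 95.5 and 71.7 CPM/kb in the BATI4KO libraries. Apart from KO_2, each BATI4KO library was above each floxed one, the nearest being KO_1 and FX_5497. In brown fat the mean of Myh4 was 92.1 ± 68.4 CPM over the floxed libraries and 599 ± 606 CPM over those of BATI4KO mice (SD, n = 5 and 6), a log2 difference of +2.72 (SE 0.74, edgeR adjusted p = 0.178). It was above the floxed mean in 5 of 6 BATI4KO libraries. Without KO_3 the difference was +1.54 (edgeR adjusted p = 0.249), with short numbers alone +3.29 (edgeR adjusted p = 0.656) and with long tags alone +2.05 (0.186).

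Myh1 was at 2.29, 2.95, 3.20, 10.6 and 0.249 CPM/kb in the floxed and at 6.37, 1.87, 48.7, 5.11, 16.2 and 9.27 CPM/kb in the BATI4KO libraries. FX_5497 lay above 4 BATI4KO libraries. The log2 difference was +1.91 (SE 0.89, edgeR adjusted p = 0.341), +0.74 without KO_3, +3.35 without FX_5497 (edgeR adjusted p = 0.154), +2.76 with short numbers and +0.92 with long tags.

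Myh2 was at 0.311, 0.220, 1.42, 1.22 and 0.0772 CPM/kb in the floxed and at 0.804, 0.777, 39.9, 5.41, 8.13 and 0.756 CPM/kb in the BATI4KO libraries. KO_3, KO_5414 and KO_5492 were above all floxed libraries and the other 3 lay among them. The log2 difference was +3.76 (SE 1.17, edgeR adjusted p = 0.197), +1.66 without KO_3, +4.46 with short numbers and +2.91 with long tags.

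Myh7 did not stand highest in the library with most muscle RNA. It was at 0.233, 0.418, 0.510, 0.417 and 0.0957 CPM/kb in the floxed and at 1.29, 0.181, 1.74, 13.3, 0.147 and 2.37 CPM/kb in the BATI4KO libraries. KO_5414 held 3790 of its counts, against 319 in KO_3 and 39 in KO_5492. It differed by +2.71 on the log2 scale (SE 1.06, edgeR adjusted p = 0.266), and by +1.81 without KO_5414. Short numbers alone gave +1.48, and long tags alone +4.42.

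Myh8 was flat beside the other chains. It was at 0.306, 0.236, 0.310, 0.251 and 0.189 CPM/kb in the floxed and at 0.351, 0.327, 0.528, 0.325, 0.383 and 0.273 CPM/kb in the BATI4KO libraries, from 75 to 147 counts each. It spanned 2.80-fold over the 11 libraries, against 42.3-fold for Myh4. Only KO_5494 lay within the floxed range. The log2 difference was +0.54 (SE 0.17, edgeR adjusted p = 0.197). Relative to Myh4 it had 3.54 to 86.8 counts per 1000, all above the 1.16 to 2.13 of white vastus. Myh13 had 2.52 to 9.63 per 1000, which overlaps its range in white vastus.

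Myh3 and Myh6 did not pass the filter on low counts in brown fat and were not tested there. Myh3 had 1, 0, 13, 3 and 0 counts in the floxed and 0, 0, 6, 12, 17 and 0 counts in the BATI4KO libraries. Myh6 had 4, 2, 1, 1 and 0 counts in the floxed and 4, 4, 15, 34, 6 and 7 counts in the BATI4KO libraries. In CPM the 2 genotypes did not overlap for Myh6. The highest floxed value was 0.125 CPM and the lowest BATI4KO value 0.141 CPM. Among the tested models 0.561% showed BATI4KO above floxed without overlap. The gap rests on libraries with 4 counts on both sides, and KO_5414, highest for Myh7, was also highest for Myh6. Without a filter Myh6 differed by +2.75 (log2, edgeR adjusted p = 0.15).

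**Figure D4:**
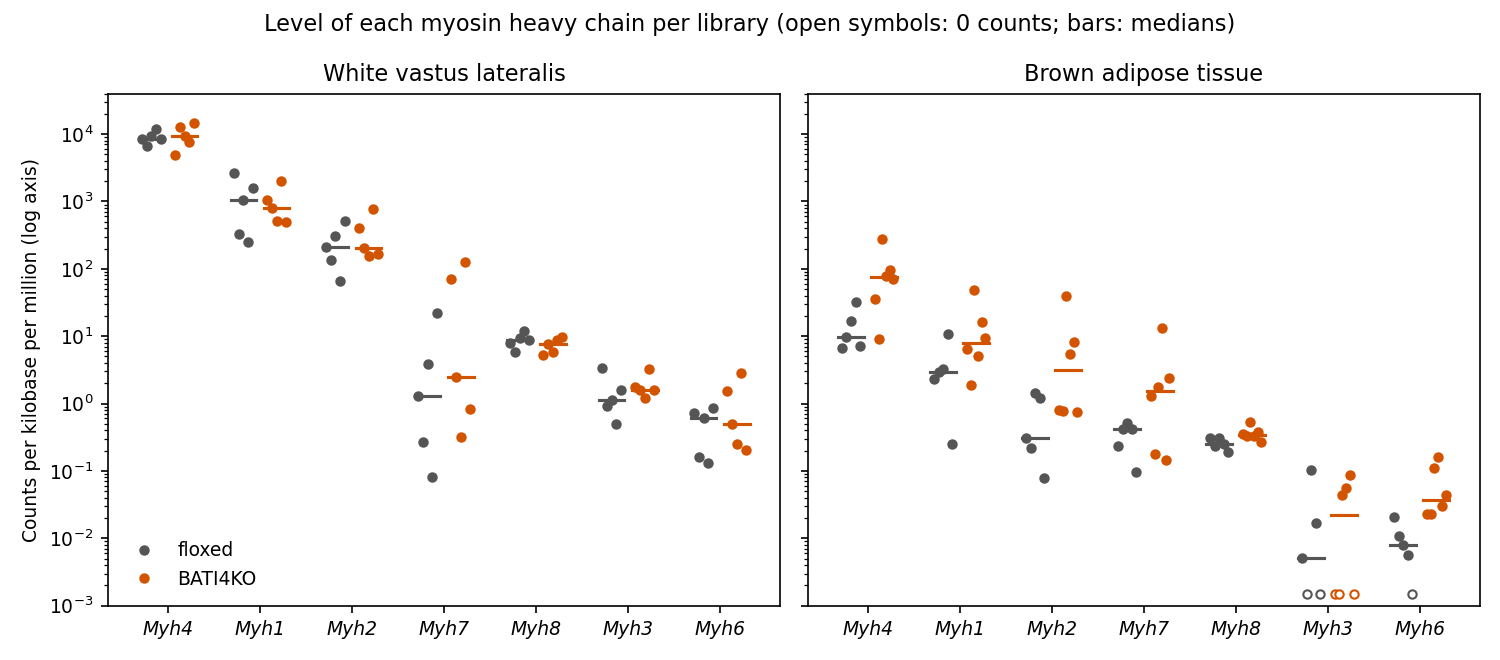
Each point is a library, with the level of a myosin heavy chain in CPM/kb on a log axis, floxed in grey and BATI4KO in orange, bars at the medians and open symbols for 0 counts. In white vastus the genotypes overlap for all 7 genes, and in brown fat Myh4 spans 6.65 to 281 while Myh8 stays between 0.189 and 0.528.

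None of the 5 members tested in brown fat passed. edgeR called 0 of 5, against 0.0436% of the 16051 tested models, and 4 of 5 (Myh2, Myh4, Myh7 and Myh8) had an unadjusted p under 0.05 and a higher level in BATI4KO, against 7.5% of models. DESeq2 called 2 of 5, Myh4 (adjusted p = 0.0305) and Myh2 (adjusted p = 0.0471), against 2.41% of models. With a muscle score as covariate, the mean log2 CPM of 17 muscle genes that are not myosin heavy chains, the log2 differences became +0.22 for Myh4, +0.14 for Myh2, -0.55 for Myh1, +1.09 for Myh7 and +0.19 for Myh8, and 0 of 5 passed edgeR's test. The genes of the score lay higher in BATI4KO brown fat: 17 of 17 had a positive difference, with a median of +2.58, against 48.8% of models. Of them 16 had an unadjusted p under 0.05 in edgeR, against 14.7% of models, while 0 passed after adjustment. Genotype and the amount of muscle RNA therefore cannot be told apart by this fit.

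Fast and thick-filament genes differed with Myh4 in brown fat. All 11 fast counterparts had a positive log2 difference with a median of +2.55, against -0.01 over all tested models, and all 11 had an unadjusted p under 0.05 in edgeR, against 14.7% of models, while 0 passed. DESeq2 called 5 of them, against 2.41% of models. The highest per length were Atp2a1 (+2.55), Myl1 (+1.06), Tnnt3 (+2.69) and Mylpf (+2.22). Without KO_3 the median was +1.41. With the muscle score, which holds Actn3 of this list, it was +0.05, and 6 of 11 were positive.

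Among 20 tested thick-filament partners 18 had a positive difference in brown fat, with a median of +1.83, and 15 had an unadjusted p under 0.05 in edgeR, against 14.7% of models. The highest per length were Myl1, Mylpf, Ttn (+2.68, edgeR adjusted p = 0.201) and Smyd2, a lysine methyltransferase that is not confined to muscle (-0.03, 0.934). The median was +0.74 without KO_3 and -0.03 with the muscle score, which holds Ttn. No partner passed edgeR's test, and DESeq2 called 2, against 2.41% of models.

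The slow counterparts had 9 of 10 positive differences in brown fat, with a median of +2.05, and 6 had an unadjusted p under 0.05. Over all tested models of brown fat 48.8% were positive and 14.7% had such a p. By level per length they were led by genes that fat itself expresses, Atp2a2, the calcium pump of most cells (mean CPM 505 in floxed and 390 in BATI4KO libraries, log2 -0.38), and Tpm3, a tropomyosin also found outside muscle (+0.09). Tnnt1 (+3.69) and Csrp3, a muscle LIM protein (+3.35), followed. Without KO_5414, the library with most Myh7, the median was +0.59, and 7 of 10 were positive. With the muscle score as covariate it was -0.05, and 5 of 10 were positive. With a filter of 1 CPM only 4 were tested, 3 of them positive, with a median of +0.14. In floxed libraries Tnnt1 had 0 to 12 counts and Tnni1 2 to 13. Passing the filter on low counts then depends on the BATI4KO libraries, which favours positive differences. None of the list passed edgeR's test. Other myosin heavy chains had a median of +0.17. Myh13 differed by +2.64 (edgeR adjusted p = 0.197), while the nonmuscle Myh9 (+0.02) and Myh10 (+0.01), the smooth muscle Myh11 (-0.11) and Myh14 (+0.49) were abundant and did not pass.

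**Figure D5:**
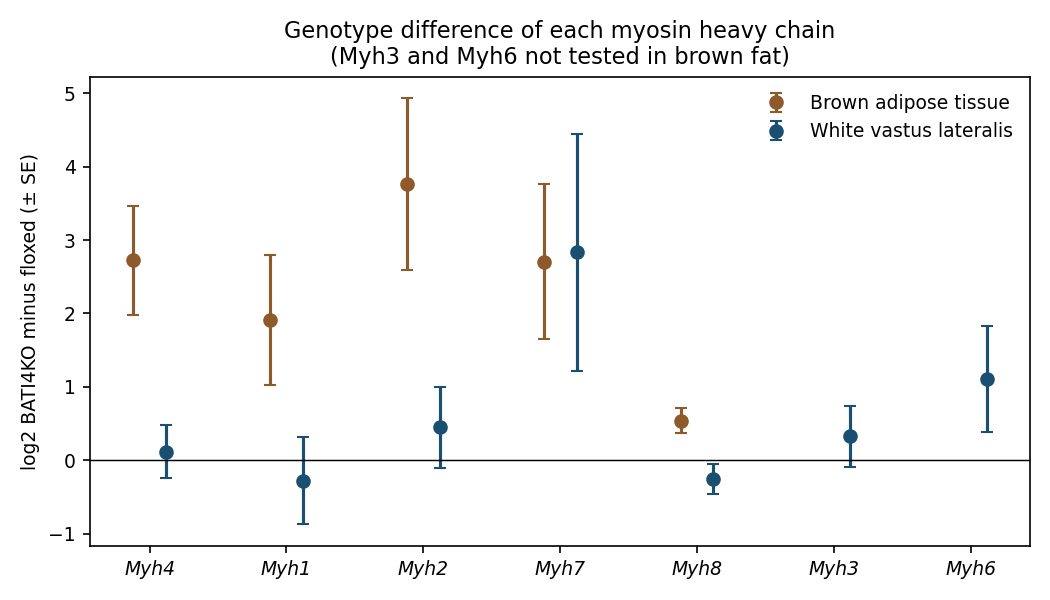
Points give the log2 difference, BATI4KO minus floxed, of each myosin heavy chain from edgeR's fits, with bars of ± 1 SE, for brown fat and white vastus. In brown fat the differences run from +0.54 (Myh8) to +3.76 (Myh2), in white vastus those of Myh4, Myh1 and Myh2 lie between -0.27 and +0.45, and none passes after adjustment.

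Markers of other cells were summed in brown fat beside the myosins. Summed skeletal fibre markers were highest in the same library as Myh4, KO_3. Stem and regenerating cell markers summed to 2.70 to 4.99 CPM in floxed and 2.85 to 6.09 CPM in BATI4KO libraries, with Pax7, Myf5, Myod1 and Myog each at 25 counts or fewer. Ncam1 alone was at 2.53 to 4.80 CPM. Cardiac markers summed to 3.19 to 27.5 CPM in floxed and 2.75 to 7.65 CPM in BATI4KO libraries, with Nkx2-5 at 0 counts throughout and Myl7 at 1 count or fewer. Of these, Ryr2 was at 1.23 to 25.6 CPM and Myl4 at 0.940 to 2.42 CPM. Nppa, Nppb, Tnni3 and Tnnt2 stayed at or below 0.582 CPM. Nerve and junction markers summed to 2.77 to 16.1 CPM in floxed and 6.15 to 19.5 CPM in BATI4KO libraries, and smooth muscle markers to 84.0 to 135 and 80.3 to 112 CPM. The part of these cells in the myosin differences was not tested.

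The IIb chain was also the main one in the myosin RNA of brown fat. Myh4 took 67.7% to 92.0% of the summed CPM/kb, Myh1 3.25% to 23.5%, Myh2 0.895% to 10.7%, Myh7 0.122% to 13.1% and Myh8 0.142% to 3.12%. Myh4 exceeded Myh1 in 11 of 11 libraries and Myh1 exceeded Myh2 in 10 of 11. Below these the order was not stable, with Myh2 above Myh7 in 6 and Myh7 above Myh8 in 7 of 11 libraries. KO_3 and KO_5492 had little slow chain, at 0.468% and 0.122% of myosin, while KO_5414 had 13.1%.

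Shares were compared in 8 exact two-sided permutation tests over libraries, 4 for Myh4 and 4 for Myh7, with Benjamini-Hochberg adjustment. Between genotypes the Myh4 share was 75.9% ± 9.44 in floxed and 78.4% ± 3.94 in BATI4KO brown fat (SD, n = 5 and 6, exact permutation p = 0.576, adjusted p = 0.768). In white vastus it was 86.4% ± 9.38 in floxed and 85.9% ± 10.8 in BATI4KO libraries (SD, n = 5 each, exact permutation p = 0.905, adjusted p = 0.905). Neither difference exceeded the spread between libraries.

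The slow share was compared between tissues and between genotypes. In floxed mice Myh7 made up 1.97% ± 0.87 of myosin in brown fat and 0.0521% ± 0.0886 in white vastus (SD, n = 5 each). Its 0.925% to 3.06% in the floxed brown fat libraries did not overlap the 0.000676% to 0.209% in floxed white vastus. The exact permutation p was 0.00794, the smallest that 5 against 5 libraries can give, and the adjusted p was 0.0635, so it did not pass after adjustment. These floxed brown fat shares rest on 28 to 105 counts of Myh7 a library, and the slow Tnnt1 had 0 to 12 counts there. The Myh8 share was likewise higher in floxed brown fat, at 1.85% against 0.0845% in floxed white vastus. What raised these shares was not tested. In BATI4KO mice the Myh7 shares were 3.47% ± 4.84 in brown fat and 0.466% ± 0.626 in white vastus (SD, n = 6 and 5, exact permutation p = 0.115, adjusted p = 0.281). For Myh4 the share was higher in white vastus by 10.6 percentage points in floxed (exact permutation p = 0.103, adjusted p = 0.281) and 7.52 in BATI4KO mice (p = 0.141, adjusted p = 0.281). Between genotypes the Myh7 share differed by 1.49 percentage points in brown fat (exact permutation p = 0.803) and by 0.414 in white vastus (p = 0.333), BATI4KO minus floxed, with adjusted p-values of 0.905 and 0.533. In brown fat that sign rested on KO_5414: without it the difference was -0.425.

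Whether genotype differences themselves differed by tissue was tested as an interaction over all 21 libraries and 16632 models. Of 7 members 0 passed in edgeR (0.018% of models did), and 3 had an unadjusted p under 0.05 (7.78% of models). The effect in white vastus minus that in brown fat was -2.58 on the log2 scale for Myh4 (SE 0.88, edgeR adjusted p = 0.457), -3.40 for Myh2 (edgeR adjusted p = 0.535) and -0.73 for Myh8 (edgeR adjusted p = 0.547). These 3 were the members under an unadjusted 0.05. For Myh7 it was -0.44 (SE 1.90, edgeR adjusted p = 0.983). 4 titles occur in both tissues (FX_5497, FX_5503, KO_5492 and KO_5494). KO_5492 was high for Myh7 in white vastus, at 71.8 CPM/kb, and lowest among BATI4KO libraries in brown fat, at 0.147 CPM/kb. Whether a tag stands for an animal is not in the labels.

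Genes whose level followed each member most closely were found over all tested models that are not members, by Pearson's r of log2 CPM. The 11 brown fat libraries share differences in the amount of muscle RNA. Myh4 was followed there by Tnnt3 (r = 0.992, rho = 0.982), Ckm, muscle creatine kinase (r = 0.984, rho = 0.982), and Tpm2, a tropomyosin (r = 0.978, rho = 0.982). Myh2 was followed by Ckmt2, mitochondrial creatine kinase (r = 0.967), Smyd1, a muscle methyltransferase (r = 0.962), and Myom2, an M-band protein (r = 0.951), and Myh1 by Hfe2, Mylk2 and Hhatl (r = 0.953, 0.947 and 0.944). Without the 2 libraries farthest from the member's median, r was 0.985 for Tnnt3 with Myh4, 0.929 for Ckmt2 with Myh2 and 0.799 for Hfe2 with Myh1.

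Myh7 again went with slow troponins in brown fat, Tnni1 (r = 0.963, rho = 0.891) and Tnnt1 (r = 0.9498, rho = 0.918), with Inhbb, an activin subunit, as the third (r = 0.913). Without the 2 farthest libraries these were 0.895, 0.858 and 0.805. Its correlation with the muscle score was 0.625, against 0.956 for Myh4, 0.946 for Myh2, 0.900 for Myh1 and 0.841 for Myh8. Myh8 was followed by Pstpip2, Slc41a3 and Camk2g (r = 0.941, 0.935 and 0.930), none of them sarcomere genes.

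In white vastus, over 10 libraries, the most alike genes differed by chain. Myh4 was followed by Psmd1, a proteasome subunit (r = 0.985), and Pygm, muscle glycogen phosphorylase (r = 0.981). Myh1 was followed by Alas1, which starts haem synthesis, Got2, the mitochondrial aspartate aminotransferase (r = 0.980 for both), and Pm20d2 (r = 0.970). Myh2 was followed by Myom3, an M-band protein (r = 0.986), Egln3, an oxygen-sensing prolyl hydroxylase (r = 0.971), and Hspb7, a small heat shock protein (r = 0.970). Without the 2 farthest libraries r was 0.979 for Psmd1, 0.963 for Alas1, 0.971 for Got2 and 0.971 for Myom3.

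The minor chains of white vastus had other partners. Myh6 was followed by Acsl1, an acyl-CoA synthetase (r = 0.980), Egln3 (r = 0.974) and Rcan2 (r = 0.968). Myh3 was followed by mt-Nd4, a mitochondrially encoded subunit of complex I (r = 0.978, rho = 1), Axin2 (r = 0.974) and Zfp629 (r = 0.973). mt-Nd4 ran from 1230 CPM in FX_5503 to 6510 CPM in FX_5413, which were also the libraries with least and most Myh3. Myh8 was followed by Arfgap1, Ftsj3 and Jsrp1 (r = 0.930, 0.915 and 0.907). Correlations with the muscle score were 0.396 to 0.695 for the 7 members in white vastus. These values describe libraries that share tissue, scaling and sets of libraries, and were picked as the highest of all tested models.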

How the data were processed

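RNA was sequenced from 21 libraries of whole mouse tissue, after depletion of ribosomal RNA, with random-hexamer priming and a Nextera XT library kit, per the labels' protocols. Each tissue's table holds raw counts and the length of every model, as the authors deposited it, per the file headers. The submitters' processing notes name build mm9, featureCounts 1.4.6, TopHat2 2.0.14, bcl2fastq 2.17.1.14, SAMtools 0.1.19, Picard 2.2.4 and edgeR, without their settings. Molecular identifiers are not mentioned, so intervals that rest on counts cover counting error only.

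Differences between genotypes came from quasi-likelihood F tests in edgeR 4.0.16 under R 4.3.3. TMM scaling was used, with filterByExpr by genotype, and p-values were adjusted by Benjamini-Hochberg over all tested models, at a threshold of 0.05. Title style (short number or long tag) was a covariate in BAT. WV had none. An interaction fit covered both tissues on group means, without title style as a covariate and without blocking titles that occur in both. CPM used TMM-scaled totals, and log2 CPM a prior count of 2. Alternatives were other scalings and filters, DESeq2 1.42.0, limma 3.58.1 (voom), a muscle score as covariate, summed models, each title style alone, a replicate block and each library left out. The alternatives restricted to WV libraries with little Rmrp and Rpph1, and the medians of lists under each alternative, were added after seeing the data. On simulated counts, changes of 2-fold were recovered in 86.2% of cases for BAT (15899 models), 80.6% for WV (14322 models) and 47.3% for the interaction (16200 models). The changes were placed at random among models above a minimum mean count. Recovery was not measured for the members, whose SE reached 0.74 for Myh4 in BAT and 1.62 for Myh7 in WV. The rates therefore do not describe what could be detected for them.

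Members and lists were chosen with earlier results of these data known. All 7 members are named. Of each list the passing genes are named or, as none passed, up to 4 with the highest mean counts per kilobase. For likeness the 3 tested models with the highest r are named for each member with a mean of at least 1 CPM in the tissue. For Myh4 in WV 1 of these is not reported here. Coordinates and promoters came from RefSeq tables of GRCm38.p6 and coding sequences from GENCODE M21 transcripts. Protein sequences were not used here.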

Additional observations from a re-analysis of the deposited data

Results flagged for a closer look

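In 40 checks of groups of 5 or 6 libraries, 12 had a lowest or highest library set apart from the rest by more than a critical gap (Dixon's test at 95%). Chance alone marks about 1 in 20 groups only where values are normally distributed. Levels and shares were checked without logs and are skewed, so chance may mark more. The checks share libraries, so they are not independent.

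In BATI4KO brown fat, KO_3 stood apart for Myh1 (48.7 CPM/kb), Myh2 (39.9 CPM/kb), Myh4 (281 CPM/kb) and the myosin total (372 CPM/kb). KO_5414 stood apart there for Myh7, in level (13.3 CPM/kb) and in share of myosin (13.1%). In floxed brown fat FX_5497 was high for Myh1 (10.6 CPM/kb), and FX_3 for Myh3 (0.104 CPM/kb, from 13 counts).

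In floxed white vastus FX_5514 was high for Myh7, at 22.3 CPM/kb and 0.209% of myosin, and FX_5415 was low for the myosin total, at 7064 CPM/kb. In BATI4KO white vastus KO_5495 was high for Myh3, at 3.28 CPM/kb. KO_5495 also held the most Myh7, Myh2 and Myh6 of all white vastus libraries.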

How the results depend on the processing

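The number of called members was 0 in every alternative for white vastus and for the interaction, and in brown fat in every one but DESeq2, which called 2 (Myh2 and Myh4). Signs turned in the following cases, none of which passed a test, and the cause was not tested. With the muscle score as covariate, Myh1 was at -0.55 in BAT and 0.0055 in WV (log2). In WV, Myh1 was at 0.015 by limma voom and Myh4 at -0.027 with library totals only. In WV libraries with little Rmrp and Rpph1, 7 in number, Myh3 was at -0.19, Myh8 at 0.11 and the Myh4 share, BATI4KO minus floxed, at 2.16 percentage points. In BAT the Myh4 share differed by -2.06 points with long tags alone and the Myh7 share by -0.959 points with short numbers alone.

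Leaving out each library in turn gave log2 differences in WV of -0.71 to 0.28 for Myh1 (the highest without FX_5413), -0.085 to 0.92 for Myh2 (the lowest without KO_5495) and -0.060 to 0.29 for Myh4 (the lowest without KO_5496). They were 0.036 to 0.86 for Myh3, 0.36 to 1.41 for Myh6, 1.77 to 4.86 for Myh7 and -0.37 to -0.11 for Myh8. Differences in share ran from -3.56 to 2.83 points for Myh4 in WV, positive without KO_5492, KO_5495, FX_5415 or FX_5503, and from -0.425 to 2.16 points for Myh7 in BAT. In BAT the log2 differences of the 5 tested members were positive without any 1 library, at 0.74 to 3.35 for Myh1, 1.66 to 4.78 for Myh2 and 1.54 to 3.37 for Myh4 (each lowest without KO_3 and highest without FX_5497), 1.81 to 3.18 for Myh7 and 0.43 to 0.61 for Myh8.

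Deviations of same-numbered BAT libraries with short numbers correlated at 0.134, -0.121 and 0.0673. Those of same-tagged libraries of both tissues correlated at -0.00998 to 0.0612. The main fits did not pair libraries by number. Such values cannot show that libraries are unpaired, because paired libraries need not deviate alike. With the short number as a replicate block, 0 of 5 members passed in BAT. The Myh7 share differed by -0.959 points over the 3 pairs, which by construction is the value of short numbers alone. With the title number as a replicate block in limma voom over both tissues, 0 members passed, and the interaction was 0.28 for Myh3 and 0.61 for Myh7. Myh3 and Myh6 in BAT had 0 to 34 counts a library, which limits what can be detected for them.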
